A study of Mus musculus with 24 samples.

Results

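T and NK cell genes are described here in mouse colon, as 34 genes of the 22911 gene symbols on the array. They were chosen by name: a probe belonged to the list if its accession mapped to the symbol of a member, and the probe with the highest mean over the 24 arrays stood for the gene. All 34 members were found. Colon RNA of C57BL/6J mice, from the distal colon per the methods, was hybridized in 1 color to Agilent mouse arrays, with 4 arrays in each of 6 groups. Tumors had been counted in these colons, and the methods do not say whether the pieces used held tumor. M + LFD and M + HFD were males and F + LFD and F + HFD were females, all sham-operated per the methods. F(OVX) + LFD and F(OVX) + HFD were ovariectomized (OVX) females, which lack the ovarian source of estrogen. The low-fat diet (LFD) held 10 kcal% fat and the high-fat diet (HFD) 45 kcal% fat, and each was fed for 14 weeks to mice bought at 7 weeks of age. Mice of all 6 groups, the LFD controls included, had received azoxymethane (10 mg/kg), a colon carcinogen, and 3 cycles of 1.5% dextran sulfate sodium in the drinking water, which injures the colon lining, and tissue was taken 75 days after azoxymethane. No untreated colon was among the groups, so each difference below is between diets in colon that carried this treatment. The animals on the arrays had been chosen by the methods for a body weight near the average of their group.

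T cells recognize antigen through the T cell receptor, which signals through the CD3 chains, the kinases Lck and Zap70 and the adaptor Lat. The coreceptors Cd4 and Cd8 divide the cells into helper and cytotoxic lineages, Tbx21, Gata3, Foxp3 and Eomes are transcription factors of their subsets, and cytotoxic T cells and NK cells kill through granules that hold granzymes and perforin. In the colon, T cells lie in the lamina propria, in the epithelium and in lymphoid follicles, where they sit beside many B cells. NK cells lack CD3 and carry receptors such as Ncr1 and Klrk1.

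Values are log2 of the processed signal after quantile normalization, so a difference of 1 is a change of 2-fold. A probe's level is compared between arrays and never with the level of another probe. The share of probes that the scanner software flagged well above background ran from 40.5% to 61.9% per array. It was lowest on F(OVX) + LFD replicate 3 (40.5%), and next on F + HFD replicate 2 (43.6%). M + LFD replicates 1 and 2 stood apart in another way. Hoxb13, a transcription factor of the hindmost gut, read 2.18 and 5.04 on them and between 12.58 and 14.79 on the remaining arrays, so results in males are also given without these 2 arrays. Each slide held the arrays of 1 sex or surgery, with LFD in one row and HFD in the other. Sex or surgery and slide therefore cannot be told apart, nor can diet and the row on the slide. Replicates 1 to 4 of each group lay in columns 1 to 4, so replicate number and column cannot be separated. In whole tissue, fewer T cells and less RNA per T cell cannot be told apart either.

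The T cell label held against the data, while among the members the NK cell label rested on genes that cytotoxic T cells share. Cd3d, Cd3e and Cd3g, which define T cells, were well above background on all 24 arrays, as was Epcam, a marker of the epithelium that lines the colon. Ncr1, the receptor that defines NK cells, was well above background on 0 arrays, and its highest reading was 2.78. Among other receptor genes of NK cells, Klrb1c, which encodes NK1.1, was well above background on 8 arrays, Klrg1 on 18, Klrc1 on 1 and Klre1 on 0. Receptor genes outside this family went both ways: Cd244a was well above background on 24 arrays and Cd96 on 19. Cd226 and Cd160 were so on 1 array each and Tigit on 0. Klrd1, Klrk1, Il2rb and Nkg7 were well above background on all 24, and these genes are shared by NK cells and cytotoxic T cells. In all, 23 members were well above background on every array. The others were Tbx21 on 23 arrays, Cd8a on 21, Pdcd1 on 20, Prf1 on 17, Cd69 on 16, Sh2d1a on 14, Foxp3 on 11, Eomes on 3, Cd27 on 2 and Ctla4 on 1. A member was tested in a comparison if its probe passed that background flag on all 4 arrays of at least 1 diet, as 26 members did in males, 28 did in females and 26 did in OVX females. Because a gene could pass through the group in which it was brighter, counts over the tested members are descriptions of those members and not of all 34.

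Promoters are shown for 4 members to which the results return: Cd3g and Cd3d, neighbors on chromosome 9 that are read in opposite directions from starts 1355 bases apart, Tbx21, and Gzmb. Each runs from 250 bases before to 50 bases after the start of the gene in RefSeq (GRCm38.p6), 5′ to 3′ on the strand of the gene: Cd3g at chr9:44980382-44980681 on the minus strand, Cd3d at chr9:44981536-44981835 on the plus strand, Tbx21 at chr11:97115282-97115581 on the minus strand and Gzmb at chr14:56262285-56262584 on the minus strand. Capitals mark matches on either strand to short motifs of factor families active in lymphocytes: RUNX (TGTGGT), ETS (GGAAG), T-box (GTGTGA) and E-box (CAGCTG).
Cd3g: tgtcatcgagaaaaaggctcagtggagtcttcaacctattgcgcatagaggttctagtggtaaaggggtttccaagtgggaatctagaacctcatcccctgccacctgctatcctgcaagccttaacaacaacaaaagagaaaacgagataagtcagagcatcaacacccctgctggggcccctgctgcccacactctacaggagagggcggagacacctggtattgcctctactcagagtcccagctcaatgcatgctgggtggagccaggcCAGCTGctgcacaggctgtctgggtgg
Cd3d: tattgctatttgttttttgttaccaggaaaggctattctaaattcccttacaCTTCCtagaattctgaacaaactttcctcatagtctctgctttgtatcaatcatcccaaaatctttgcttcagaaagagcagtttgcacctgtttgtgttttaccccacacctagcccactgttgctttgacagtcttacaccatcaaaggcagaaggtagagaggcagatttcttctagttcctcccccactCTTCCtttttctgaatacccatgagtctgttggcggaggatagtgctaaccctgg
Tbx21: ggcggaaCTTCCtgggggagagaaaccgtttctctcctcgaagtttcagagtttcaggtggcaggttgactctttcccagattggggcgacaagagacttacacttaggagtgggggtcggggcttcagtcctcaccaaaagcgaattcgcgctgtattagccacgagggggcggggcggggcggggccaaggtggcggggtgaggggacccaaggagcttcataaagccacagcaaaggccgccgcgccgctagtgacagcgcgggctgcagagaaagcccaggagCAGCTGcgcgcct
Gzmb: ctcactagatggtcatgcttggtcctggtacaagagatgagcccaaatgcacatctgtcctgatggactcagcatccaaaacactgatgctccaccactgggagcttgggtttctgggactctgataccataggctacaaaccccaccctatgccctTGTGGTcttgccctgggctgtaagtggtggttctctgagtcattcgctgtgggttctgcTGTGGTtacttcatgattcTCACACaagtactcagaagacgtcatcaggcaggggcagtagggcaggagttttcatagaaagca
The Gzmb window held 2 RUNX matches and 1 T-box match, the Cd3d window 2 ETS matches, the Tbx21 window 1 ETS and 1 E-box match and the Cd3g window 1 E-box match, and no matches overlapped. Of 32851 promoters of the same length, 16.8% held the RUNX letters, 71.4% the ETS letters, 14.5% the T-box letters and 16.3% the E-box letters. Such matches are descriptions of these letters only. The table held a promoter for 22 of the 34 members.

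Mean signals of most T and NK cell genes were lower on HFD in males and females, and of fewer in OVX females, but few of these differences passed the thresholds. A gene was called at a change of at least 1.5-fold and an unadjusted p under 0.05 from limma, the thresholds of the study. In males, 25 of the 26 tested members had a lower mean on HFD, with a median difference of -0.45 on the log2 scale beside 0.01 over all 20516 genes tested. In females, 26 of 28 had a lower mean, with a median of -0.49 beside -0.0045 over 22085 genes. In OVX females, 21 of 26 had a lower mean, with a median of -0.27 beside 0.011 over 19211 genes. These genes are read from the same cells of the same mice, so they do not count as separate observations.

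Called members were 4 of 26 in males, all lower on HFD (Cd3g, Cd6, Cd8b1 and Tbx21), where 1.80% of all genes tested were called lower and 2.50% higher. In females 1 of 28 was called, Tbx21, also lower, where 0.797% of all genes were called lower and 0.398% higher. In OVX females none of the 26 was called by limma or by the methods' t-test, where 1.02% of all genes were called lower and 1.18% higher, and 1 member, Klrd1, had an unadjusted p under 0.05. After Benjamini-Hochberg adjustment over all genes tested, limma left 0 members under 0.05 in any comparison, with a smallest adjusted p of 0.800 in males, 0.991 in females and, among OVX females, 0.9996. The counts of members with an unadjusted p under 0.05 were 7, 1 and 1.

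**Figure D1:**
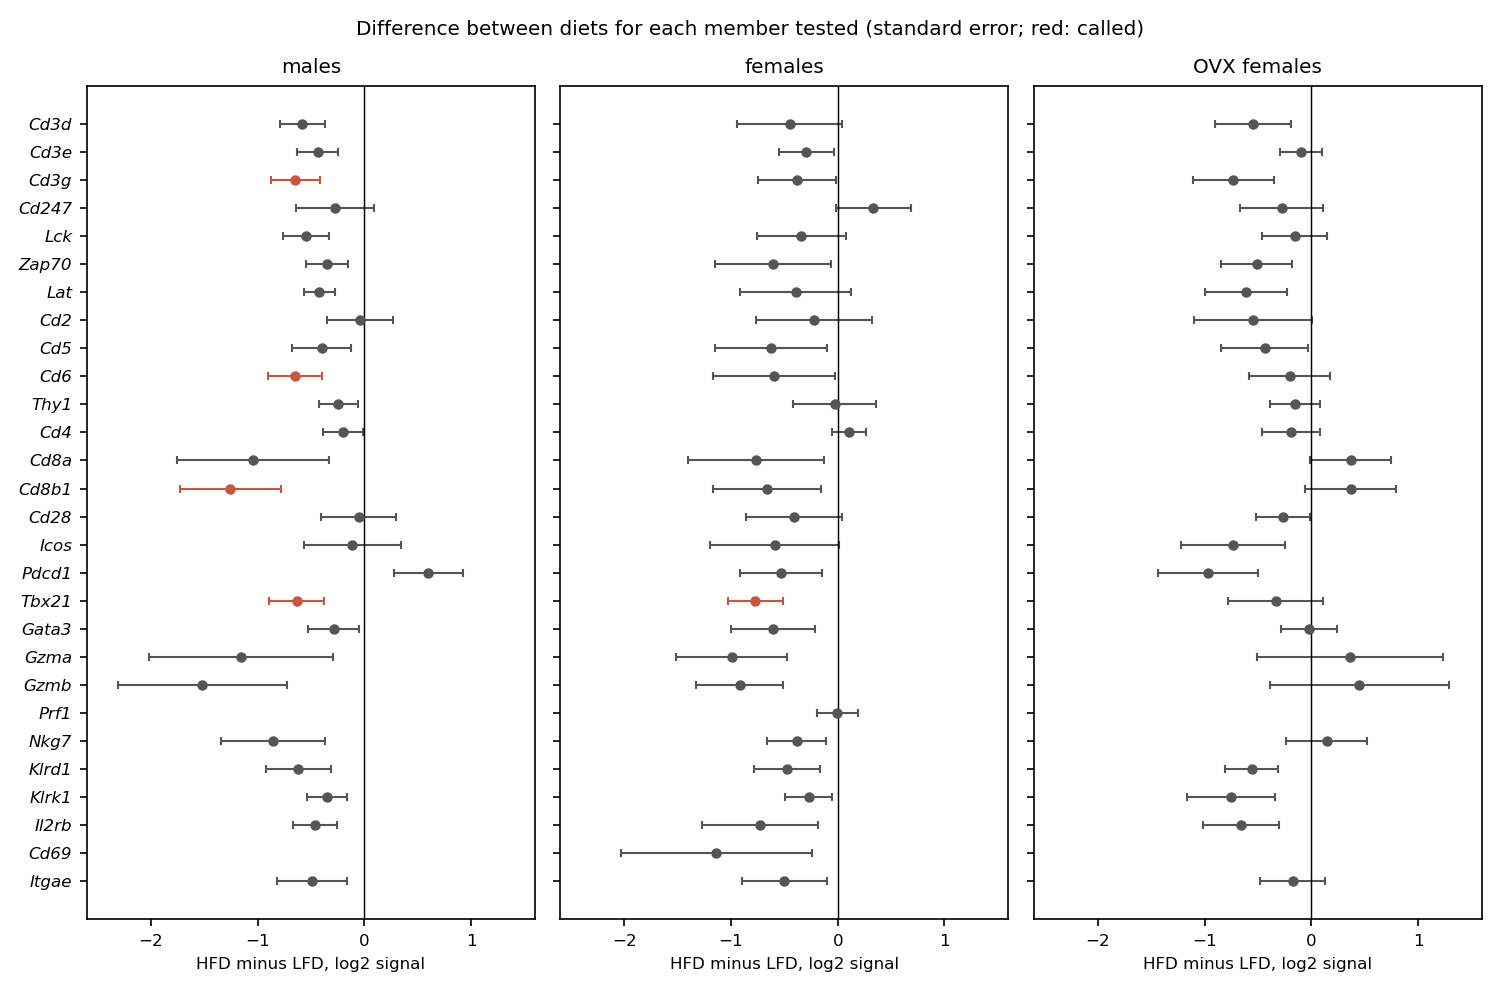
Difference between diets (HFD minus LFD, x axis, log2 signal) for each member tested in males, females and OVX females, with points at the limma estimate, bars of 1 standard error and called members in red. Most points lie left of 0 in all 3 panels, and Gzma, Gzmb, Nkg7, Cd8a and Cd8b1 lie right of 0 in OVX females.

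In males, all 11 tested genes listed under the CD3 complex and its signaling had a lower mean on HFD, from -0.65 for Cd6 to -0.04 for Cd2. This list, called receptor genes below, also holds surface proteins outside the receptor complex (Cd2, Cd5, Cd6 and Thy1). Cd3d, the delta chain of CD3, read 9.13, 9.81, 9.10 and 9.27 in M + LFD and 8.40, 8.93, 8.66 and 9.003 in M + HFD. The groups did not overlap, and the gene fell just short of the fold threshold (log2 difference -0.58, SE 0.21, unadjusted p = 0.0236, adjusted p = 0.800). Lat, the adaptor that links the receptor to downstream pathways, read 7.05, 6.91, 6.72 and 7.08 in M + LFD and 6.57, 6.61, 6.30 and 6.60 in M + HFD. Here too every HFD array lay below every LFD array, with a smaller difference (-0.42, SE 0.14, unadjusted p = 0.0173, adjusted p = 0.800). For Cd3d and Lat the two-sided exact permutation test gave p = 0.0286, the smallest it can give with 70 assignments. These 2 members of 26 compare with 0.911% of all genes whose HFD arrays were all below the LFD arrays, and 0 members with 1.69% of all genes whose HFD arrays were all above.

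Cd3g, the gamma chain, read 7.95, 8.34, 7.69 and 7.88 in M + LFD and 7.09, 7.16, 7.13 and 7.91 in M + HFD. M + HFD replicate 4 lay among the LFD arrays and the remaining HFD arrays below them, and the gene was called lower (-0.64, SE 0.23, unadjusted p = 0.0213, exact permutation p = 0.0857). Cd3e, the epsilon chain, read 9.24, 9.77, 8.91 and 9.11 in M + LFD and 8.75, 8.82, 8.77 and 8.94 in M + HFD. Its difference of -0.43 (SE 0.19) did not pass, and M + HFD replicate 4 lay above M + LFD replicate 3. Cd3d and Cd3g were among the genes that the study singled out on these same samples, so their direction here is not independent evidence. Lck, the kinase that starts receptor signaling, had a difference of -0.55 (SE 0.22, unadjusted p = 0.0336) and missed the fold threshold. Zap70, Cd5, Cd247, Thy1 and Cd2 had differences of -0.35, -0.40, -0.27, -0.24 and -0.04, and none passed.

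Cd6, a surface receptor that tunes T cell activation, read 8.78, 8.15, 8.10 and 8.90 in M + LFD and 7.40, 7.67, 8.06 and 8.20 in M + HFD. It was called lower (-0.65, SE 0.26, unadjusted p = 0.0333, exact permutation p = 0.114), with M + HFD replicate 4 above 2 of the LFD arrays. Tbx21, which encodes T-bet, the factor of type 1 helper and cytotoxic cells, read 6.07, 6.69, 5.95 and 5.70 in M + LFD and 5.41, 5.83, 4.996 and 5.63 in M + HFD. It was also called lower (-0.63, SE 0.26, unadjusted p = 0.0368, exact permutation p = 0.0571), and only M + HFD replicate 2 lay inside the LFD range. Gata3, the factor of type 2 helper cells, had a difference of -0.29 (SE 0.24) and did not pass.

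The CD8 chains and the granule genes Gzma, Gzmb and Nkg7 had larger differences of means and wider spreads in males. Cd8b1, the beta chain of CD8, read 8.95, 8.42, 8.30 and 6.84 in M + LFD and 6.15, 6.93, 7.66 and 6.74 in M + HFD. It was called lower, by 2.39-fold (-1.26, SE 0.47, unadjusted p = 0.0273, exact permutation p = 0.0857), although M + LFD replicate 4 lay among the HFD arrays. Cd8a, the alpha chain, read 7.40, 7.45, 5.22 and 4.41 in M + LFD and 4.25, 4.81, 5.67 and 5.58 in M + HFD. M + LFD replicates 1 and 2 were above the HFD arrays and replicates 3 and 4 among them, and a difference of -1.04 (SE 0.71) did not pass. Cd4, the coreceptor of helper cells, which macrophages also carry in lower amounts, read 8.75, 9.11, 9.25 and 9.03 in M + LFD and 8.94, 9.21, 8.58 and 8.61 in M + HFD, a difference of -0.20 (SE 0.19) that did not pass.

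Gzmb, a protease of killing granules, read 9.03, 8.39, 7.23 and 4.91 in M + LFD and 5.22, 6.26, 6.22 and 5.80 in M + HFD. M + LFD held both the highest values and the lowest value of the comparison, so the difference of -1.52 (SE 0.80) did not pass. Gzma, another granule protease, ranged from 7.34 to 11.82 in M + LFD and from 8.34 to 9.22 in M + HFD, with a difference of -1.16 (SE 0.86). Nkg7, a granule membrane protein, had a difference of -0.86 (SE 0.49), and neither passed. The receptors Klrd1 and Klrk1 and the interleukin 2 receptor chain Il2rb had differences of -0.62, -0.35 and -0.46, and Itgae, the integrin of T cells in the epithelium, -0.49; none passed. The costimulators Cd28 and Icos differed by -0.05 and -0.11. Pdcd1, which encodes the checkpoint receptor PD-1, was the member with a higher mean on HFD. It read 4.01, 4.61, 4.89 and 5.55 in M + LFD and 5.53, 5.34, 5.68 and 4.91 in M + HFD, a difference of 0.60 (SE 0.32) that did not pass.

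**Figure D2:**
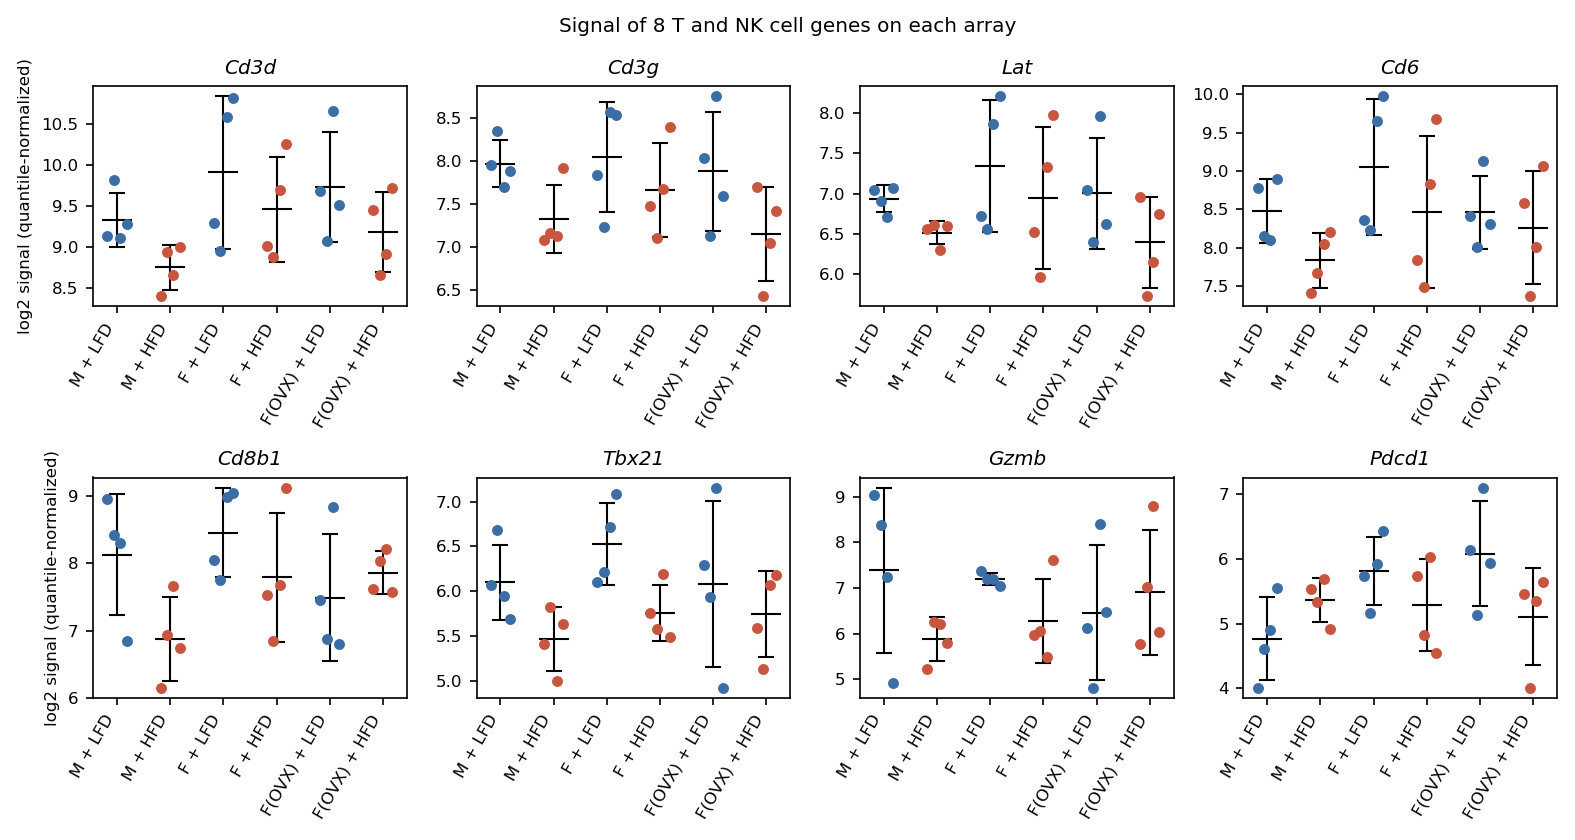
Log2 signal (y axis) of 8 members on each array in the 6 groups (x axis), with LFD arrays in blue, HFD arrays in red, a bar at the group mean and error bars of 1 SD (n = 4). Cd3d and Lat do not overlap between diets in males, and Gzmb spans 4.91 to 9.03 in M + LFD but 7.04 to 7.36 in F + LFD.

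The 4 male calls rested on few arrays. Without M + HFD replicate 1, 0 of 26 members was called by limma (Cd3g -0.57, Cd6 -0.50, Cd8b1 -1.02, Tbx21 -0.61), and without M + LFD replicate 2 Cd6 alone was (Cd3g -0.52, Cd8b1 -1.16, Tbx21 -0.44). Without M + LFD replicate 4, which had the lowest granule gene signals, 10 were called: Cd3d, Cd3g, Cd8a, Cd8b1, Gzma, Gzmb, Klrd1, Nkg7 and Tbx21 lower and Pdcd1 higher. These 9 lower calls stand beside 3.26% of all genes called lower in the same fit, and the shares without M + HFD replicate 1 and without M + LFD replicate 2 were 1.09% and 1.86%. Leaving out other male arrays gave 3 or 4 calls, but not of the same members. Cd3d was called lower without M + LFD replicate 1 or 3 or M + HFD replicate 2 or 4. The share of all genes called in these fits is not given, so the counts are descriptions of the members. Cd6 lost its call without M + LFD replicate 1 or 4 (-0.55 and -0.51) or M + HFD replicate 2 (-0.59), Cd3g without M + HFD replicate 2 or 3 (-0.59 and -0.58), Cd8b1 without M + LFD replicate 1 or 3 or M + HFD replicate 4 (-0.98, -1.20 and -1.21), and Tbx21 without M + LFD replicate 1 or 3 or M + HFD replicate 3 (-0.64, -0.68 and -0.48).

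Without M + LFD replicates 1 and 2, the pair with low Hoxb13, the male calls were other ones. All 11 tested genes of the CD3 complex and its signaling still had a lower mean on HFD, with a median of -0.42, as they had with all arrays. Of the granule genes, Gzma had a difference of 0.39 (SE 0.57), Gzmb -0.20 (SE 0.64) and Nkg7 -0.03 (SE 0.37), none of which passed, and the coreceptors Cd8a and Cd8b1 had 0.26 and -0.70. None of the 4 members called with all arrays was called (Cd3g -0.46, Cd6 -0.67, Cd8b1 -0.70, Tbx21 -0.36). Klrk1 (-0.61, unadjusted p = 0.00962), Icos (-0.96, unadjusted p = 0.0102) and Cd28 (-0.65, unadjusted p = 0.0364) were called lower instead, 3 members of 26 where 2.59% of all genes were called lower. Over the 26 members the median was then -0.37, and 22 had a lower mean. The part of these 2 arrays' position or handling in the male differences was not tested beyond leaving them out.

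In females the arrays of each diet spread farther apart than in males: the SD between arrays of the members' median was 0.627 in females, 0.461 in OVX females and 0.184 in males. Tbx21 read 6.10, 6.21, 6.72 and 7.08 in F + LFD and 5.76, 5.58, 6.20 and 5.48 in F + HFD. F + HFD replicate 3 alone reached into the LFD range, and the gene was called lower (-0.77, SE 0.25, unadjusted p = 0.0155, adjusted p = 0.991, exact permutation p = 0.0571). It kept its call when each of the 8 female arrays was left out in turn. No tested member's arrays were free of overlap, where 0.706% of all genes had every HFD array below and 1.20% every HFD array above.

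None of the 4 tested granule genes passed in females. Gzmb read 7.36, 7.21, 7.20 and 7.04 in F + LFD and 5.97, 6.06, 5.49 and 7.62 in F + HFD. The 4 LFD arrays lay close together, and F + HFD replicate 4 lay above them while the remaining HFD arrays lay below them all, and the difference was -0.92 (SE 0.41, unadjusted p = 0.0526). Gzma gave the same picture, from 9.77 to 10.07 in F + LFD and 8.07, 9.25, 7.82 and 10.41 in F + HFD (-0.99, SE 0.52). Without F + HFD replicate 4, 6 members were called lower in females: Cd8a (-1.32), Cd8b1 (-1.11), Gzmb (-1.36), Gzma, Nkg7 and Tbx21, where 1.39% of all genes were called lower in the same fit. Prf1, which encodes perforin, was tested in females and differed by -0.0046 (SE 0.19).

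Most receptor genes shown here separated the female arrays by replicate number. Cd3d read 9.28, 8.95, 10.58 and 10.82 in F + LFD and 9.01, 8.87, 9.70 and 10.25 in F + HFD, so that replicates 3 and 4 were high in both diets. Cd3g read 7.84, 7.23, 8.56 and 8.53 in F + LFD and 7.47, 7.10, 7.68 and 8.39 in F + HFD, again with replicates 3 and 4 highest. Lat, from 6.57 to 8.21 in F + LFD and from 5.97 to 7.97 in F + HFD, and Cd6, from 8.23 to 9.98 and from 7.49 to 9.68, had the same order by number. Differences between the diets were -0.45 for Cd3d, -0.38 for Cd3g, -0.29 for Cd3e, -0.39 for Lat and -0.59 for Cd6, none of which passed without regard to the number. Cd8a read 5.94, 5.31, 7.07 and 7.25 in F + LFD and 4.78, 4.85, 5.59 and 7.27 in F + HFD (-0.77, SE 0.64), and Cd8b1 8.04, 7.75, 8.99 and 9.05 and 7.53, 6.84, 7.68 and 9.13 (-0.66, SE 0.50). Cd247, the zeta chain, broke the order by number, at 9.83, 10.47, 10.22 and 9.87 in F + LFD and 10.69, 11.34, 9.66 and 10.04 in F + HFD. It and Cd4 had higher means on HFD, by 0.33 and 0.11, and did not pass.

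Same-numbered female arrays, which lay in the same column of the slide, deviated together over 16836 genes (r between 0.258 and 0.582). No correlation was taken between arrays of unlike number, and the labels name no pairing. A fit blocked on replicate number called 10 of 28 members lower, where 1.68% of all genes were called lower. They were Zap70 (-0.61), Cd5 (-0.63) and Cd6 (-0.59) of the receptor gene list, the coreceptors Cd8a (-0.77) and Cd8b1 (-0.66), the costimulator Icos (-0.59), the factors Tbx21 (-0.77) and Gata3 (-0.60), Il2rb (-0.73) and the early activation marker Cd69 (-1.14). The differences are those of the fit without the block, and the smaller errors came from taking out what same-numbered arrays shared. Il2rb had the smallest unadjusted p (0.00115), and no adjusted p of a member was under 0.666. Leukocyte markers moved with the same arrays, as given below, and their part in these calls was not tested.

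In OVX females the receptor genes and the granule genes had means on opposite sides. All 11 tested genes of the CD3 complex and its signaling had a lower mean on HFD, with a median of -0.43. Cd3g read 8.03, 7.13, 8.75 and 7.59 in F(OVX) + LFD and 7.69, 6.43, 7.05 and 7.42 in F(OVX) + HFD, a difference of -0.73 (SE 0.38, unadjusted p = 0.0862). Cd3d, at -0.55, ranged from 9.07 to 10.66 in F(OVX) + LFD and from 8.65 to 9.72 in F(OVX) + HFD. The groups overlapped for both genes, and neither passed. Lat differed by -0.61, Cd6 by -0.20 and Cd3e by -0.10.

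Gzmb read 6.13, 4.81, 8.40 and 6.48 in F(OVX) + LFD and 5.78, 7.02, 8.79 and 6.04 in F(OVX) + HFD. One array in each diet, replicate 3 of both, was far above the remaining ones, and the difference was 0.45 (SE 0.84). Gzma and Nkg7 differed by 0.36 and 0.14, and Cd8a and Cd8b1 by 0.37 each, none of which passed. Without F(OVX) + LFD replicate 3, one of the 2 dimmest arrays, Cd8b1 was called higher on HFD (0.82). The share of all genes called higher in that fit is not given, so the call describes Cd8b1 only. Cd8b1 values were 7.45, 6.88, 8.84 and 6.80 in F(OVX) + LFD and 7.62, 8.04, 8.22 and 7.57 in F(OVX) + HFD, so that LFD replicate 3 was the highest of the 8 and the remaining LFD arrays the lowest 3.

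Pdcd1 read 6.13, 5.13, 7.10 and 5.94 in F(OVX) + LFD and 5.45, 4.01, 5.34 and 5.64 in F(OVX) + HFD, a difference of -0.97 (SE 0.47, unadjusted p = 0.0684). Klrk1, Icos and Il2rb differed by -0.75, -0.73 and -0.66, and Klrd1 by -0.56, just short of the fold threshold (unadjusted p = 0.0498). Tbx21, called lower in males and in females, read 6.30, 5.93, 7.16 and 4.92 in F(OVX) + LFD and 5.59, 5.14, 6.08 and 6.18 in F(OVX) + HFD, with a difference of -0.33 (SE 0.44). Leaving out 1 array at a time gave between 0 and 4 calls in OVX females, the most without F(OVX) + HFD replicate 4 (Icos, Il2rb, Klrd1 and Klrk1 lower, where 1.44% of all genes were), 2 without F(OVX) + LFD replicate 2 (Cd3g -0.98 and Pdcd1 -1.28, where 1.28% of all genes were called lower) and 2 without F(OVX) + LFD replicate 4 (Klrd1 and Klrk1, where 1.22% were). No tested member was free of overlap, where 0.812% of all genes had every HFD array below and 1.49% every HFD array above.

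Members too dim to be tested in most groups are given as levels only. Foxp3, the factor of regulatory T cells, read 4.09, 4.37, 3.55 and 4.85 in M + LFD and 3.58, 3.35, 3.57 and 5.01 in M + HFD. It read 4.39, 3.74, 5.49 and 5.43 in F + LFD and 3.34, 2.03, 4.23 and 5.13 in F + HFD, and was well above background on 3 and 1 of these arrays. In F(OVX) + LFD it read 4.56, 3.99, 2.07 and 4.45 and in F(OVX) + HFD 3.51, 2.03, 2.07 and 3.86, with 2 and 0 arrays well above background. The Foxp3 probe was thus dim throughout, and no fold is given. Ncr1 stayed between 2.04 and 2.78 in every group. Eomes, a factor of memory and NK cells, was well above background on M + LFD replicates 1 and 2, at 5.46 and 4.45, and on 1 array of F + LFD. In OVX females its arrays did not overlap, from 2.39 to 2.60 in F(OVX) + LFD and from 2.89 to 4.54 in F(OVX) + HFD, but none was well above background there and the gene was not tested. Ctla4 and Cd27, a checkpoint and a costimulator, had their highest readings on F + LFD replicate 4, at 5.01 and 4.97, and Cd69 and Sh2d1a, an adaptor of lymphocyte signaling, were highest there too, at 7.27 and 6.65.

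Whether the diet difference itself changed with sex or surgery was tested as a contrast of effects in 1 limma fit of the 24 arrays. Between males and females 0 of 28 members differed, where 2.95% of all genes did, and 0 members had an unadjusted p under 0.05. Pdcd1 differed when M + LFD replicate 4, F + LFD replicate 2 or F + HFD replicate 3 was left out. Between OVX females and females 0 of 28 differed, where 1.52% of all genes did, again with 0 under 0.05, and Cd8b1 differed without F + HFD replicate 4 or F(OVX) + LFD replicate 3. The call of Tbx21 in males and females and not in OVX females was not a difference by this test, since its effects differed by -0.30 (SE 0.51) between males and OVX females and by 0.44 (SE 0.51) between OVX females and females.

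Between males and OVX females 2 of 28 members differed, where 6.16% of all genes did. Cd8b1 was lower on HFD in males and had a higher mean on HFD in OVX females, a difference of effects of -1.63 (SE 0.73, unadjusted p = 0.0370, adjusted p = 0.643). Pdcd1 had the opposite signs, 1.57 (SE 0.62, unadjusted p = 0.0190, adjusted p = 0.574). Gzmb, Gzma, Cd8a and Nkg7 had differences of effects of -1.97, -1.52, -1.41 and -1.001 with standard errors of 1.12, 1.22, 0.93 and 0.60, and none passed. Without M + LFD replicates 1 and 2, no member differed between males and OVX females by limma. Without M + LFD replicate 4, 6 did (Cd8a, Cd8b1, Gzma, Gzmb, Nkg7 and Pdcd1), and without F(OVX) + LFD replicate 3, 4 did (Cd8b1, Gzma, Gzmb and Nkg7). The share of all genes that differed is given only for the contrasts of all arrays, so counts with arrays left out are descriptions of these members. Cd8b1 lost its call, leaving Pdcd1 alone, without M + LFD replicate 1, 2 or 3, M + HFD replicate 1 or 4, F(OVX) + LFD replicate 1, 2 or 4 or F(OVX) + HFD replicate 3. Without F(OVX) + HFD replicate 2, 0 members differed by limma.

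**Figure D3:**
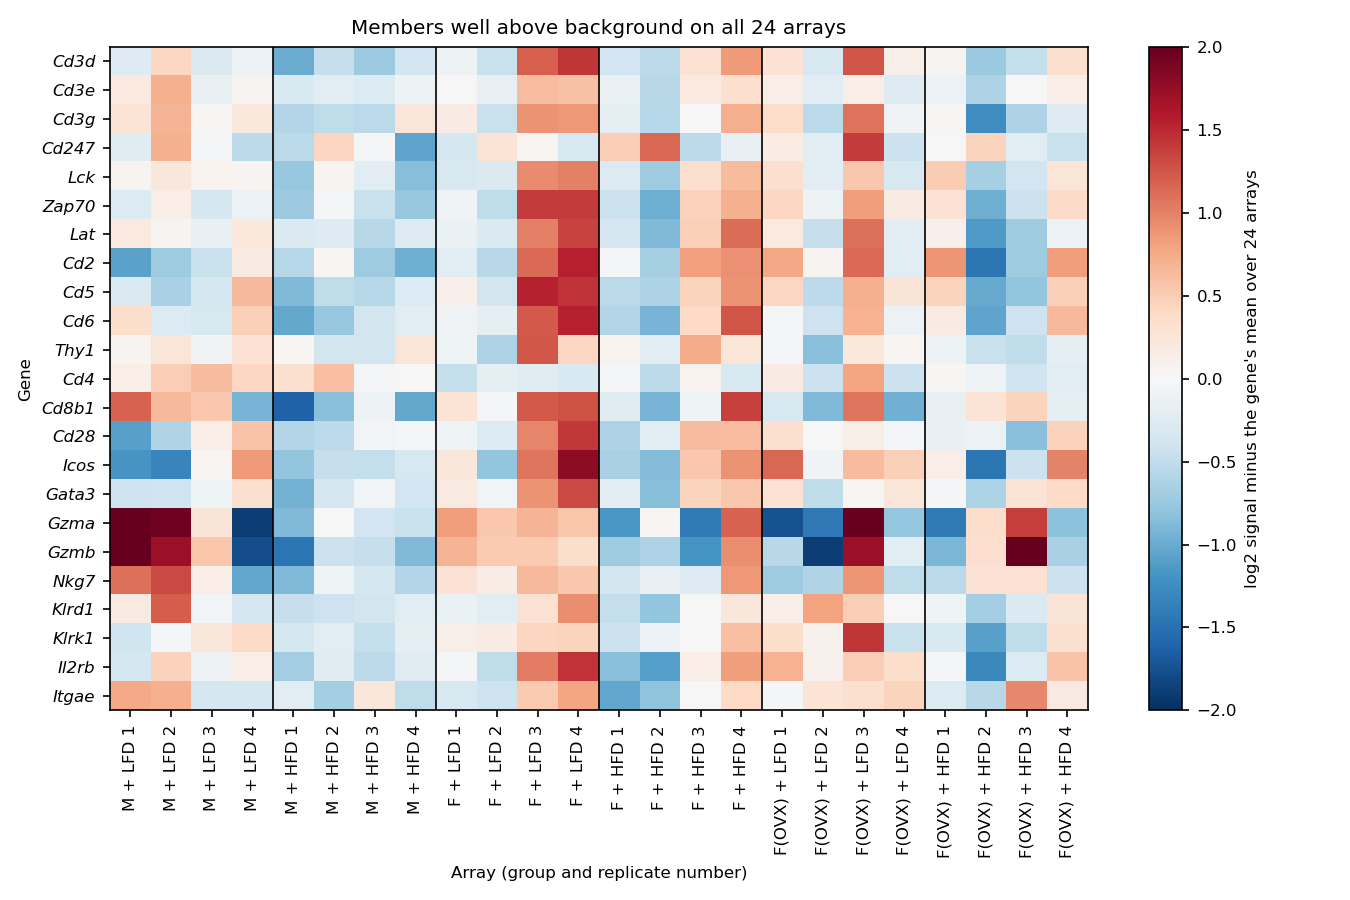
Log2 signal minus the mean of the gene over 24 arrays (color scale, limited to 2 in each direction) for the 23 members well above background on all arrays (rows) on each array (columns, by group and replicate number). F + LFD replicates 3 and 4 are red over most receptor genes, and the rows of Gzma and Gzmb follow another order, highest on M + LFD replicate 1 and low on M + LFD replicate 4.

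Across the 6 groups, the 23 members seen on all arrays had their highest mean in F + LFD for 16 and their lowest mean in M + HFD for 16. Cd3d, for example, had means of 9.91 ± 0.93 in F + LFD, 9.73 ± 0.67 in F(OVX) + LFD, 9.46 ± 0.64 in F + HFD, 9.33 ± 0.33 in M + LFD, 9.18 ± 0.49 in F(OVX) + HFD and 8.75 ± 0.28 in M + HFD (SD, n = 4). Neighbors in this order overlapped in their arrays. F(OVX) + HFD was lowest for 4 members. Cd4 went against this order, at 9.04 ± 0.21 in M + LFD, 8.84 ± 0.30 in M + HFD, 8.63 ± 0.58 in F(OVX) + LFD, 8.44 ± 0.18 in F(OVX) + HFD, 8.42 ± 0.27 in F + HFD and 8.31 ± 0.12 in F + LFD (SD, n = 4). All 4 M + LFD arrays read above all 4 F + LFD arrays, the highest of which was 8.42. The share of all genes that separate these groups was not counted, so this describes Cd4 only. Slide and sex cannot be told apart in these levels, so no test is given between them.

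A few arrays carried much of the spread within groups. F + HFD replicate 4 was the highest of its group for 19 of 23 members and replicate 2, a dim array, the lowest for 16. F(OVX) + LFD replicate 3, the dimmest array, was the highest of its group for 16. F + LFD replicate 2 was lowest for 18, F(OVX) + HFD replicate 2 for 15 and M + HFD replicate 1 for 14. In males alone, the mean over the 23 members did not overlap between the diets, from 8.10 to 8.54 in M + LFD and from 7.54 to 7.93 in M + HFD, while in females F + LFD reached 9.15, F + HFD ran from 7.66 to 8.88, and the diets overlapped. Over 22 genes of a wider T and NK cell list, given below, the male diets overlapped, from 8.14 to 8.71 in M + LFD and from 8.07 to 8.54 in M + HFD. With all arrays, no member's diet effect was called different between males and females.

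Levels of the receptor genes moved with markers of other blood cells on some groups' arrays and not on others. The mean of the 11 CD3 and signaling genes was 8.76, 8.53, 9.88 and 9.88 on the F + LFD arrays, and on the same arrays the mean of 9 B and plasma cell markers, among them Ms4a1, was 8.70, 8.48, 11.14 and 11.56. The mean of 5 markers of all leukocytes, among them Ptprc, which encodes CD45, was 8.47, 8.29, 10.14 and 10.36. Replicates 3 and 4 were thus high in all 3 lists. In F(OVX) + HFD replicates 1 and 4 were the high ones in all 3 lists: receptor genes read 9.06, 8.05, 8.38 and 9.04, B and plasma cell markers 11.14, 8.09, 9.03 and 11.09 and leukocyte markers 9.73, 7.81, 8.46 and 9.83.

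The mean of Gzma, Gzmb and Nkg7 in M + LFD was 10.10, 9.73, 8.39 and 6.51, while B and plasma cell markers read 7.04, 8.23, 9.21 and 10.33 on these arrays. Their orders were opposite, and the receptor genes, at 8.77, 8.997, 8.67 and 8.98, followed neither. In F(OVX) + HFD, replicate 3 had the highest granule mean (9.34) and a receptor mean of 8.38, below those of replicates 1 and 4. F(OVX) + LFD replicate 3 and F + HFD replicate 4 were the highest of their groups in both lists, at 9.60 and 9.69, and at 9.07 and 9.54.

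**Figure D4:**
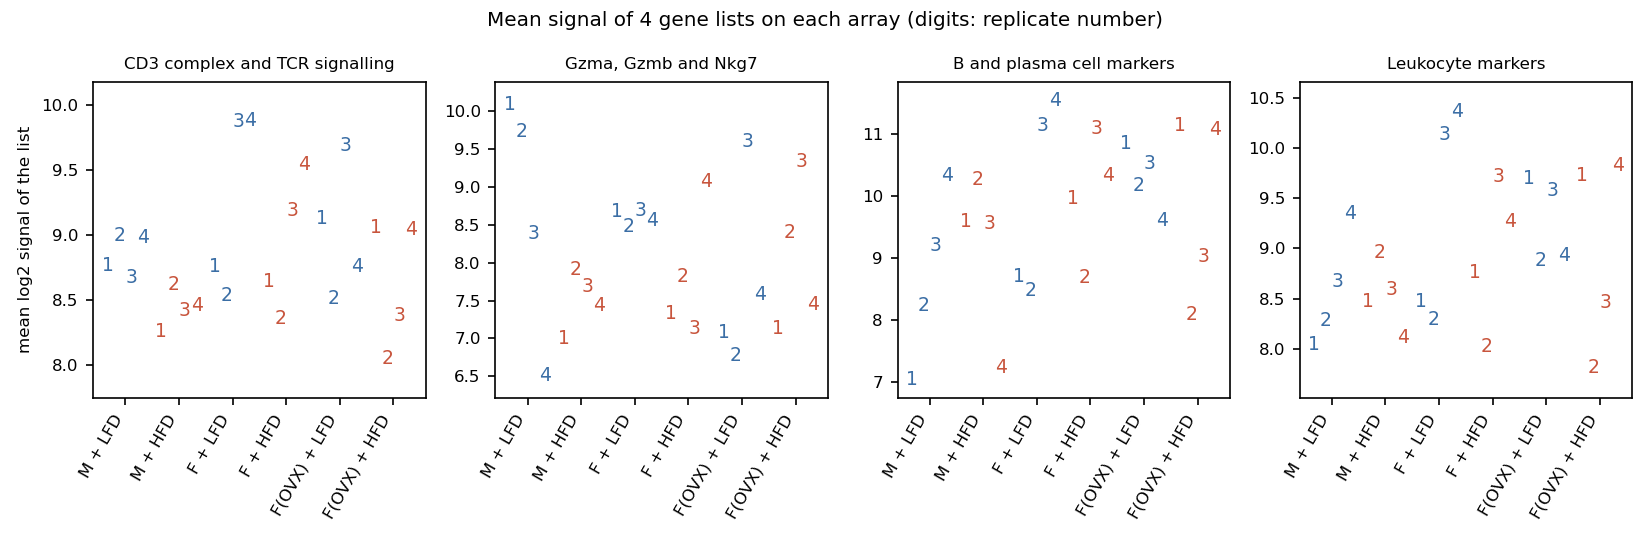
Mean log2 signal (y axis) of 11 CD3 and signaling genes, of Gzma, Gzmb and Nkg7, of 9 B and plasma cell markers and of 5 leukocyte markers, on each array by group (x axis), each digit being the replicate number, in blue for LFD and red for HFD. F + LFD replicates 3 and 4 are the highest of their group in 3 panels, and M + LFD replicates 1 to 4 stand in opposite orders for the granule genes and the B and plasma cell markers.

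Between the diets, markers of other cells moved as follows beside the T and NK cell genes. In males, the median difference was 0.49 over 11 tested B and plasma cell markers, 9 of which had a higher mean on HFD, 0.09 over 16 macrophage, monocyte and dendritic cell markers and -0.15 over the 5 leukocyte markers, with 0 of these markers called by limma in males and 0 under an unadjusted p of 0.05. Without M + LFD replicates 1 and 2, the B and plasma cell median was -0.58, the macrophage, monocyte and dendritic cell median -0.20 and the leukocyte median -0.49. In females, the median was 0.21 over 13 B and plasma cell markers, -0.47 over 16 macrophage, monocyte and dendritic cell markers, of which Ccr2 was called lower (-1.38), and -0.46 over the 5 leukocyte markers. In OVX females, all 12 tested B and plasma cell markers, all 15 macrophage, monocyte and dendritic cell markers and all 5 leukocyte markers had a lower mean on HFD, with medians of -0.45, -0.46 and -0.38. Jchain of plasma cells (-0.72), Mrc1 (-0.68) and Fcgr1 (-0.68) of macrophages were called lower. Smooth muscle markers had a higher mean in 7 of 7 in OVX females (median 0.92), with Actg2, Cnn1, Des and Tagln called higher, and in 7 of 7 in females (median 0.49), with none called. Ms4a1, Ptprc, Cd68 and Adgre1 were well above background on all 24 arrays. The part of these cells in the differences of the T and NK cell genes was not tested.

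Posterior Hox genes, of which Hoxb13 is a member, had medians of 1.98, 0.19 and -0.05 in males, females and OVX females over 5, 5 and 4 tested genes. Anterior ones had medians of 0.09, -0.10 and 0.09 over 8, 10 and 7. Without M + LFD replicates 1 and 2, the male medians were -0.23 for posterior and -0.04 for anterior Hox genes. Neutrophil markers had medians of -0.13, -0.43 and -0.94 in males, females and OVX females over 3, 3 and 2 tested genes, epithelial markers -0.0087, -0.08 and 0.25 over 12, and fibroblast markers 0.32, -0.08 and -0.14 over 7. Among the neutrophil, epithelial and fibroblast markers, Slc26a3, a chloride exchanger of surface colonocytes, was called higher in males, and no other was called.

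Other genes of T and NK cells, a wider list of 62 of which 58 were on the array, gave a mixed picture in males. There 19 of 32 tested had a lower mean on HFD (median -0.09), and 3 were called lower: Ifng (-1.34), the main cytokine of type 1 helper and NK cells, Skap1 (-0.68), an adaptor of T cell adhesion, and Cd96 (-0.88), a receptor of T and NK cells. These 3 calls stand beside 1.80% of all genes called lower in males. Without M + LFD replicates 1 and 2 the median was -0.35. In females 34 of 40 had a lower mean (median -0.36), and Fasl (-1.03), the ligand by which T cells kill through Fas, was among the 2 called lower, where 0.797% of all genes were. With the replicate block 9 of the 40 were called lower, where 1.68% of all genes were. In OVX females 27 of 27 had a lower mean (median -0.30), and Il7r (-0.84), the interleukin 7 receptor of resting T cells, was called lower, where 1.02% of all genes were.

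Where a member had more than 1 probe well above background, the probes mostly moved the same way. The second probe of Cd3d gave -0.56, -0.48 and -0.52 in males, females and OVX females beside -0.58, -0.45 and -0.55 for the brightest. Second probes of Zap70 (-0.21, -0.61 and -0.41) and Il2rb (-0.46, -0.44 and -0.63) had the signs of the brightest probe in all 3 comparisons. The second probe of Cd3e, well above background on 21 arrays, gave -0.69 and -1.25 in males and females but 0.29 in OVX females, against -0.10 for the brightest.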

How the data were processed

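RNA of 24 colon samples, 4 per group by the labels (the methods name 5 animals), was hybridized by the authors to Agilent 1-color arrays and extracted with Agilent Feature Extraction 11.0.1.1, per the labels. The deposited values are linear spot intensities, background-subtracted and detrended within each array, before any log or normalization between arrays. Control spots were left out, 1967 outlier spots were set to missing, no spot was saturated, and log2 values were quantile-normalized and averaged per probe. Accessions were named through a RefSeq table of GRCm38.p6 (32994 of 56605 probes, 22911 symbols). Each gene took its brightest probe. Diets were compared on 8 arrays per comparison with lmFit and eBayes of limma 3.58.1 (R 4.3.3), with calls at a fold of 1.5 or more and p under 0.05 before adjustment, with Benjamini-Hochberg adjustment over all genes tested. Single genes were also tested by exact permutation (70 assignments, two-sided). The fit was tested on simulated data.

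The members and gene lists were chosen with earlier results of these data known. Values by array are given for members called in a diet comparison or contrast, members without overlap, and Cd3e, Cd4, Cd8a, Foxp3, Gzmb and Ncr1. Other lists are named by their called genes and defining markers. The labels give replicates by number only, and the methods name animals of each group, chosen by body weight, for the arrays. Each p-value sets a difference of means against the spread between these samples. The number of arrays limits the precision. Alternatives were another scaling, normexp background correction of median signals (offset 50), no filter and a stricter filter, the mean of all probes, outlier spots kept, the methods' t-test, the replicate block and leaving out arrays. Leaving out M + LFD replicates 1 and 2 was chosen after seeing the data. Same-numbered arrays, which also shared a slide column, deviated together in females (r = 0.283, 0.450, 0.582 and 0.258). They did not in males (0.012, -0.261, 0.0047 and -0.032) or in all OVX females (0.331, -0.089, 0.324 and 0.248). Values of a few listed genes are not reported here.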

Additional observations from a re-analysis of the deposited data

Results flagged for a closer look

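In 5 of 151 member and group sets of 4 arrays, 1 array lay far from the others by Dixon's ratio (the gap to the next array over the range, above the critical value for 4 samples); chance gives such a set in about 1 of 20, or 7.55 of 151. They were Cd3g in M + HFD (0.907; replicate 4 at 7.91, the next at 7.16), Lck in M + LFD (0.894; replicate 2 at 9.83, the next at 9.68), Lat in M + HFD (0.865; replicate 3 at 6.30, the next at 6.57), Nkg7 in F + HFD (0.840; replicate 4 at 9.19, the next at 8.15) and Nkg7 in F(OVX) + LFD (0.868; replicate 3 at 9.20, the next at 7.81). F(OVX) + LFD replicate 3 was also the dimmest array, and the part of its brightness in the Nkg7 value was not tested.

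The diet effect differed between males and OVX females for Cd8b1 (-1.63) and Pdcd1 (1.57) by the limma contrast, where 6.16% of all genes differed. Neither passed after Benjamini-Hochberg adjustment (adjusted p = 0.643 and 0.574). Slide and sex or surgery cannot be told apart in this contrast.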

How the results depend on the processing

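Called members were 4 for males, 1 for females and 0 for OVX females. They became 1 in males and 0 in females with normexp, 1 in males with the methods' t-test (Cd3g), 2 in females with 75th percentile scaling (Gzmb, Tbx21), and 1 in OVX females with no filter (Eomes, higher). Tbx21 lost its male call with 75th percentile scaling and with normexp. With the replicate block, which compares arrays of the same number, they were 10 in females, where 1.68% of all genes were called lower. In OVX females they were 3 (Cd3g, Il2rb and Pdcd1, all lower), where 1.36% of all genes were called lower. Same-numbered OVX arrays did not all deviate together (r = -0.089 for replicate 2). The block left the same 4 calls in males, where 1.71% of all genes were called lower, and changed no call in the contrasts. Tbx21 in females lost its call with normexp (-0.44) and under the filter for all 24 arrays, where it is not tested and Gzmb was called. Members that differed between males and OVX females, 2 in all, were 1 with normexp, 1 with probes well above background on all 24 arrays and 0 without M + LFD replicates 1 and 2, and between males and females, 0 in all, 1 with no filter (Eomes). Leaving out 1 array gave 0 to 10 calls in males, 1 to 6 in females and 0 to 4 in OVX females, medians of -0.50 to -0.40, -0.75 to -0.26 and -0.47 to -0.15, and 0 to 1, 0 to 6 and 0 to 1 members in the contrasts of males with females, males with OVX females and OVX females with females. The medians kept their sign under every alternative run.

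Over all genes, calls in males were 882, and 567 with normexp and 489 with the t-test; in females 264, and 80 with normexp, 627 with no filter, 108 with the all-array filter, 125 with the t-test and 586 with the block; in OVX females 421, and 270 with normexp, 843 with no filter and 209 with the t-test. For the single members with values by array, 479 alternative values kept their side of the thresholds, 30 lost a call, 21 gained one and 0 reversed. The slide as a block could not be run, since each diet comparison lies on 1 slide. Signal over background limited Foxp3, Ncr1, Eomes, Cd27 and Ctla4. The causes of these changes were not tested.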
